A study of Mus musculus with 4 samples.

Results

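The genes described here make sterols and fatty acids. There are 31 of them, taken from a fixed list by gene symbol, out of 13685 genes listed in at least 1 of the 3 deposited tables. They fall into 18 enzymes of the sterol branch (Acat2 to Dhcr7), 6 genes of sterol sensing and transport (Insig1, Insig2, Scap, Srebf1, Srebf2 and Stard4) and 7 genes of the fatty acid branch (Acly, Acss2, Acaca, Fasn, Elovl6, Fads1 and Fads2). All 31 were listed for both comparisons with CAF.CM, and 30 for Wnt2, where Fads2 was not listed. The RNA-seq libraries came from dendritic cells grown out of the bone marrow of C57BL/6 mice aged 4 weeks, over 7 days with IL-4 and GM-CSF at 10 ng/ml each. Every group, controls included, had both cytokines. The 4 groups were control medium, the secreted ligand Wnt2, CAF.CM (medium in which CAFs had been cultured, an abbreviation the labels do not spell out), and CAF.CM mixed beforehand with a Wnt2 antibody. The sources used here do not give the dose of Wnt2, the share of CAF.CM or the length of treatment.

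Cells build cholesterol from acetyl-CoA through mevalonate, isoprenoid diphosphates, squalene and lanosterol. Fatty acid synthesis starts from the same acetyl-CoA, which Acly and Acss2 supply in the cytosol. Both branches are under SREBP transcription factors, which stay in the endoplasmic reticulum while sterols are plentiful, held there through SCAP by the INSIG proteins, and are cut free when sterols run low. SREBP-2 (Srebf2) is best known for sterol genes and SREBP-1c (from Srebf1) for fatty acid genes. In myeloid cells these pathways are known to respond to interferons, lipid uptake and inflammatory signals.

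Each group had 1 column of values and is treated as 1 library, although the series text speaks of triplicates, so the differences below could not be set against replicates and were not tested. Intervals are 95% exact binomial intervals on a ratio of 2 libraries, or Poisson intervals on a sum, and cover counting error only. The number of reads in listed genes was 143071376 for control medium and 154399767 for Wnt2, but 25225220 for CAF.CM and 22791494 for the antibody library, so intervals are wider for the last pair. Dendritic cell markers were listed in 10 of 10 cases and summed to between 694 CPM (Wnt2) and 3587 CPM (control medium), where CPM is the authors' read count scaled to library size. Itgax (CD11c) alone ran from 888 CPM in control medium down to 30.3 CPM with the antibody. Of the 9 such markers listed for both of these libraries, 7 were lower with the antibody and 2 higher. The higher ones were Zbtb46 (15.7 CPM in control medium, 21.2 with the antibody) and H2-Ab1 (489 and 521 CPM). Under Wnt2, Cd74 had 119 CPM against 1055 CPM in control medium, while Irf8 had 140 against 145 CPM. Flt3 was listed in the Wnt2 table only, at 0.699 CPM in control medium and 1.17 CPM with Wnt2. Macrophage and monocyte markers, also 10 of 10 listed, summed to between 1287 CPM (antibody) and 3216 CPM (control medium), B cell markers were listed in 0 of 5 cases and neutrophil markers in 2 of 9. Fibroblast markers, 6 of 10 listed, summed to between 8.32 CPM (control medium) and 17.7 CPM (antibody), with Col1a1 in no table. Dcn alone, at 0.509 CPM in control medium and 13.9 CPM with the antibody, carried that difference, while Thy1, Acta2 and Pdgfrb were lower with the antibody than in control medium. The share of reads from protein-coding genes ran from 81.3% (control medium) to 72.4% (antibody). The part of cell makeup, of this composition and of depth in the differences below was not tested, and fewer cells of a type cannot be told apart from less RNA per cell.

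The sums of the sterol enzymes and of the fatty acid members were at opposite ends of their ranges in the CAF.CM + Wnt2 antibody library. The 18 sterol enzymes together stood at 280 CPM in control medium (Poisson interval 277 to 283), 292 CPM under Wnt2 (290 to 295), 270 CPM under CAF.CM (264 to 276) and 317 CPM with the antibody (309 to 324). The sensing and transport genes had sums of 136, 131, 131 and 154 CPM in the same order. The fatty acid genes had sums of 445, 427, 328 and 282 CPM, the Wnt2 sum being over 6 genes. Acly alone made up most of this sum in each library, with 248 CPM in control medium and 144 CPM with the antibody. Acaca (60.1 and 61.2 CPM) and Fasn (27.3 and 25.8 CPM) hardly differed between these libraries, so the fall in the sum was not shared by the whole branch. Sterol genes were thus highest and these fatty acid genes lowest in the same library, as sums. The fatty acid sum leaves out the stearoyl-CoA desaturase genes Scd1 and Scd2, which are not members and were highest there. Scd2 had 130 CPM in control medium and 588 CPM with the antibody, and Scd1 10.5 and 57.1 CPM. The contrast thus concerns the fixed list of members only. Of the sterol enzymes 11 of 18 had their highest value in the antibody library, where 28.2% of the 12507 genes listed in every table had theirs. Of the 6 fatty acid genes listed in every table, 0 had their highest value there and 3 their lowest, against 38.4% of all such genes with their lowest there.

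**Figure D1:**
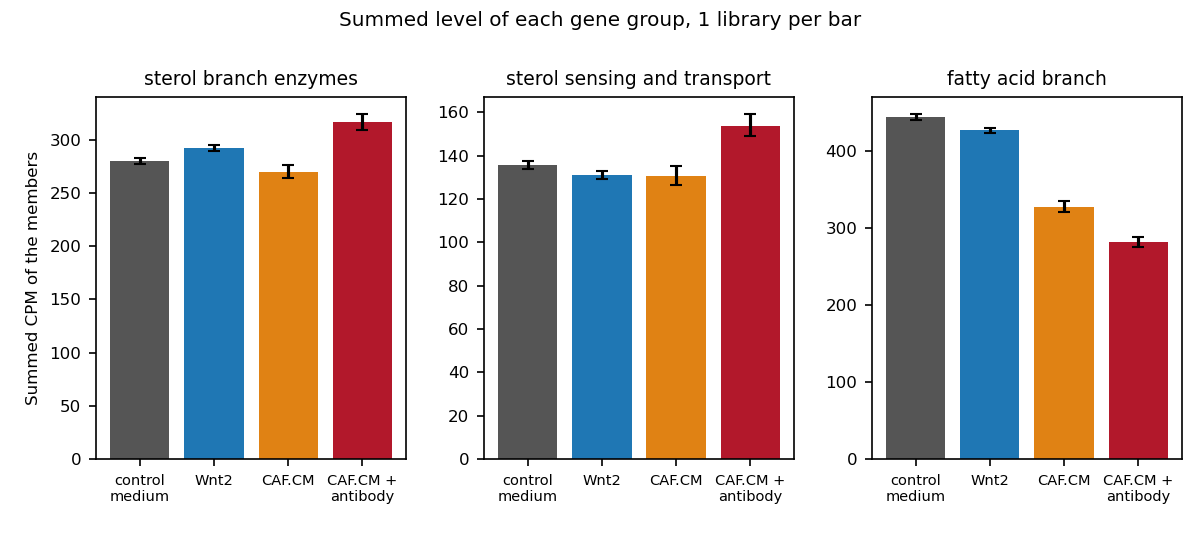
Summed level (CPM, linear axis from 0) of the 18 sterol branch enzymes, the 6 sensing and transport genes and the 7 fatty acid genes, with 1 bar per library and Poisson 95% intervals. The antibody bar is the highest for sterol enzymes (317 CPM) and the lowest for these fatty acid genes (282 CPM), which do not include Scd1 and Scd2. Acly alone makes up most of each fatty acid bar.

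Most sterol enzymes were expressed at a low to moderate level. Per kilobase of annotated exon, the sterol enzyme with the highest level in control medium was Sc5d, the C5 desaturase, at 15 CPM per kb, followed by Hmgcs1 (9.03), Ebp (8.58), Mvd (7.86) and Pmvk (5.35). The level per kilobase was lowest for Hsd17b7, the 3-ketosteroid reductase, at 0.598. Acly exceeded all of them at 46.9 CPM per kb. Across the 4 libraries the ratio of the highest to the lowest value of a sterol enzyme ran from 1.22-fold for Nsdhl to 2.57-fold for Sqle.

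The first steps of the branch, from acetyl-CoA to squalene, are made by 8 of the enzymes. Hmgcs1, which makes HMG-CoA, stood at 41.5 CPM in control medium, 36.8 under Wnt2, 30.9 under CAF.CM and 41.7 with the antibody, so it was lowest in CAF.CM and alike in control medium and the antibody library. Pmvk, phosphomevalonate kinase, had 9.17, 10.6, 19.5 and 17.7 CPM in that order and separated both CAF.CM libraries from the other two. Mvd, the decarboxylase that follows, had 14.6, 18.3, 21.0 and 22.2 CPM, lowest in control medium. Idi1, the isomerase of isopentenyl diphosphate, went from 6.44 CPM in control medium and 7.82 with Wnt2 to 9.14 with CAF.CM and 14.6 with the antibody, its highest value. Fdps, which makes farnesyl diphosphate, had 6.66, 6.49, 7.34 and 9.09 CPM, and Fdft1, squalene synthase, 10.9, 9.61, 10.8 and 13.9 CPM, both highest with the antibody. Mvk, mevalonate kinase, was highest with CAF.CM (5.49 CPM) and stood at 3.92, 3.27 and 3.92 CPM in control medium, Wnt2 and the antibody library. Acat2, which joins acetyl-CoA units, ran from 4.25 CPM with Wnt2 to 5.95 CPM with the antibody. Some of these values are uncertain. Acat2 shared 50.5% of its 31-base words with other genes, mainly Acat3, and Idi1 shared 22.2%. Fdft1 shared 16.5%, and it overlaps Ctsb on the other strand. Hmgcs1 overlaps Gm48342 on the other strand, and no source used here says whether the counting used strand.

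The steps from squalene to cholesterol hold the member of the branch that varied most. Sqle, squalene epoxidase (GRCm38 chr15:59315077-59331192, plus strand), stood at 9.86 CPM in control medium, 10.5 under Wnt2, 13.6 under CAF.CM and 25.3 with the antibody. The antibody value lay well above the other three. Cyp51, the lanosterol demethylase, had 11.6, 9.62, 12.5 and 16.5 CPM, and Msmo1, the C4 methyl oxidase, 23.5, 19.7, 19.7 and 29.1 CPM, both again highest with the antibody. Lss, which closes the sterol rings, had 18.6, 20.4, 24.0 and 26.7 CPM. Hsd17b7 had 3.05, 3.34, 6.15 and 6.03 CPM, higher in both CAF.CM libraries than in the others. The last steps went the other way. Sc5d had 72.9, 92.2, 48.9 and 49 CPM, and Dhcr7, which makes cholesterol from 7-dehydrocholesterol, had 13.3, 13.2, 8.56 and 9.18 CPM, so both were lower in the CAF.CM libraries than in the others. Ebp, the isomerase before them, had its lowest value with the antibody (15.1 CPM) and its highest in control medium (19.8 CPM). Tm7sf2, a C14 reductase, and Nsdhl, a C4 decarboxylating dehydrogenase, stayed between 4.47 and 6.46 CPM and between 4.18 and 5.11 CPM.

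**Figure D2:**
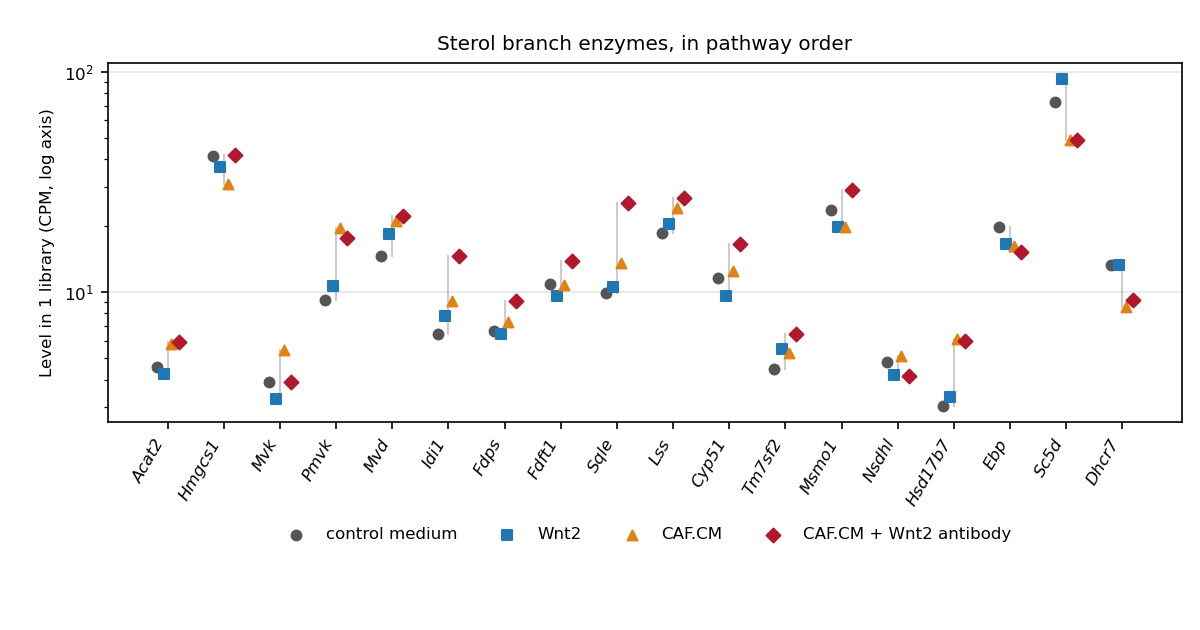
Level (CPM, log axis) of each sterol branch enzyme in pathway order, with 1 point per library and a grey line from the lowest to the highest. The antibody library (diamonds) is highest for 11 of 18 enzymes, Sqle and Idi1 among them, while Sc5d and Dhcr7 are lower in both CAF.CM libraries.

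Promoter windows, 250 bases before to 50 after an annotated start site, were at hand in RefSeq (GRCm38.p6) for 26 of the 31 members, with 34 windows in all. Fdps, Fdft1, Sqle, Stard4 and Fads1 had no window. Sqle, with the highest ratio of antibody to CAF.CM of all members, and Stard4, with a ratio above that of Insig1, are therefore missing below. The 5 members with a window and the highest such ratio are shown, and the last of them, Hmgcs1, was no higher with the antibody than in control medium beyond counting error. They are Srebf2 (chr15:82147019-82147318, plus strand), Idi1 (chr13:8885356-8885655, plus strand), Insig1 (chr5:28071162-28071461, plus strand), Msmo1 (chr8:64733529-64733828, minus strand) and Hmgcs1 (chr13:119690101-119690400, plus strand). Each is written from 5′ to 3′ on the gene's strand. Capitals mark CCAAT, or its reverse complement ATTGG, and in Hmgcs1 also the 1 match to TCACNCCAC, the string searched as sterol regulatory element.
Srebf2: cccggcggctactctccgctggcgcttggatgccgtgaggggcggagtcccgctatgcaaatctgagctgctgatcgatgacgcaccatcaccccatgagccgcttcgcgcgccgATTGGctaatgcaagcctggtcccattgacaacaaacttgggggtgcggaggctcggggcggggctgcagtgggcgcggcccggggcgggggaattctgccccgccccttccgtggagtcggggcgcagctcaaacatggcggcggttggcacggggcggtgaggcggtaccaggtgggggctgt
Idi1: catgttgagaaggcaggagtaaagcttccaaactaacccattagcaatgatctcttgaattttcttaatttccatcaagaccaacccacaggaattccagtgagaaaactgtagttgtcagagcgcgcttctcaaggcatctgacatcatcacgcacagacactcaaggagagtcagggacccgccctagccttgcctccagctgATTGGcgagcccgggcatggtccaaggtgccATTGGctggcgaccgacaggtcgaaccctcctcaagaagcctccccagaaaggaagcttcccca
Insig1: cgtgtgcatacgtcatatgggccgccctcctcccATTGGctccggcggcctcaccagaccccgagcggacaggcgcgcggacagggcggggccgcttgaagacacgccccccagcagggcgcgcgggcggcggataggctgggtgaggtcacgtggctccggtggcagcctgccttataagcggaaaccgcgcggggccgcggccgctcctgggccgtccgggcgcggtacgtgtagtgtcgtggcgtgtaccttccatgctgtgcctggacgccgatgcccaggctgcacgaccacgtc
Msmo1: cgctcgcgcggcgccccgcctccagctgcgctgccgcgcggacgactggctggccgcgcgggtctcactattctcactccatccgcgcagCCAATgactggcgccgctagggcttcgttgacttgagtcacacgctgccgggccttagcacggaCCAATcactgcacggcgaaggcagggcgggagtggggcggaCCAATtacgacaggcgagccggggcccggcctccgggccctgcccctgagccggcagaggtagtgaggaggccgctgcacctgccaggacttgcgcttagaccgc
Hmgcs1: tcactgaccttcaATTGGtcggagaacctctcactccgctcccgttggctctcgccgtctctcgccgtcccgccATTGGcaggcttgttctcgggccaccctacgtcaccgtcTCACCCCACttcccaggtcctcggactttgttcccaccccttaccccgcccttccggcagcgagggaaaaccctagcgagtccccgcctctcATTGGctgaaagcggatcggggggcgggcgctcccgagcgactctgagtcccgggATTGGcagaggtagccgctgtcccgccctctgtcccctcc

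CCAAT is the letter string that NF-Y binds, a factor known to work beside SREBP on sterol promoters. It was found on either strand in the windows of 21 of 26 members, against 41.1% of all 27025 genes with a window. By branch it was in 14 of 15 sterol enzymes, 4 of 5 sensing and transport genes and 3 of 6 fatty acid genes. Hmgcs1 held 4 copies, Msmo1 3, Idi1 2, and Insig1 and Srebf2 1 each. By window rather than by gene, 22 of 34 held it, against 37.4% of all windows. TCACNCCAC was in 1 of 26 members, Hmgcs1, and in 1.44% of all genes, and variants of this string were not searched. The GC box GGGCGG was in 22 of 26 members (38.2% of all genes) and the E-box CACGTG in 5 of 26 (8.09%). Some members have several windows, which raises their chance of a match. Acaca and Elovl6 held none of the 4 strings. These matches describe letters in a window and are neither sites nor causes.

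**Figure D3:**
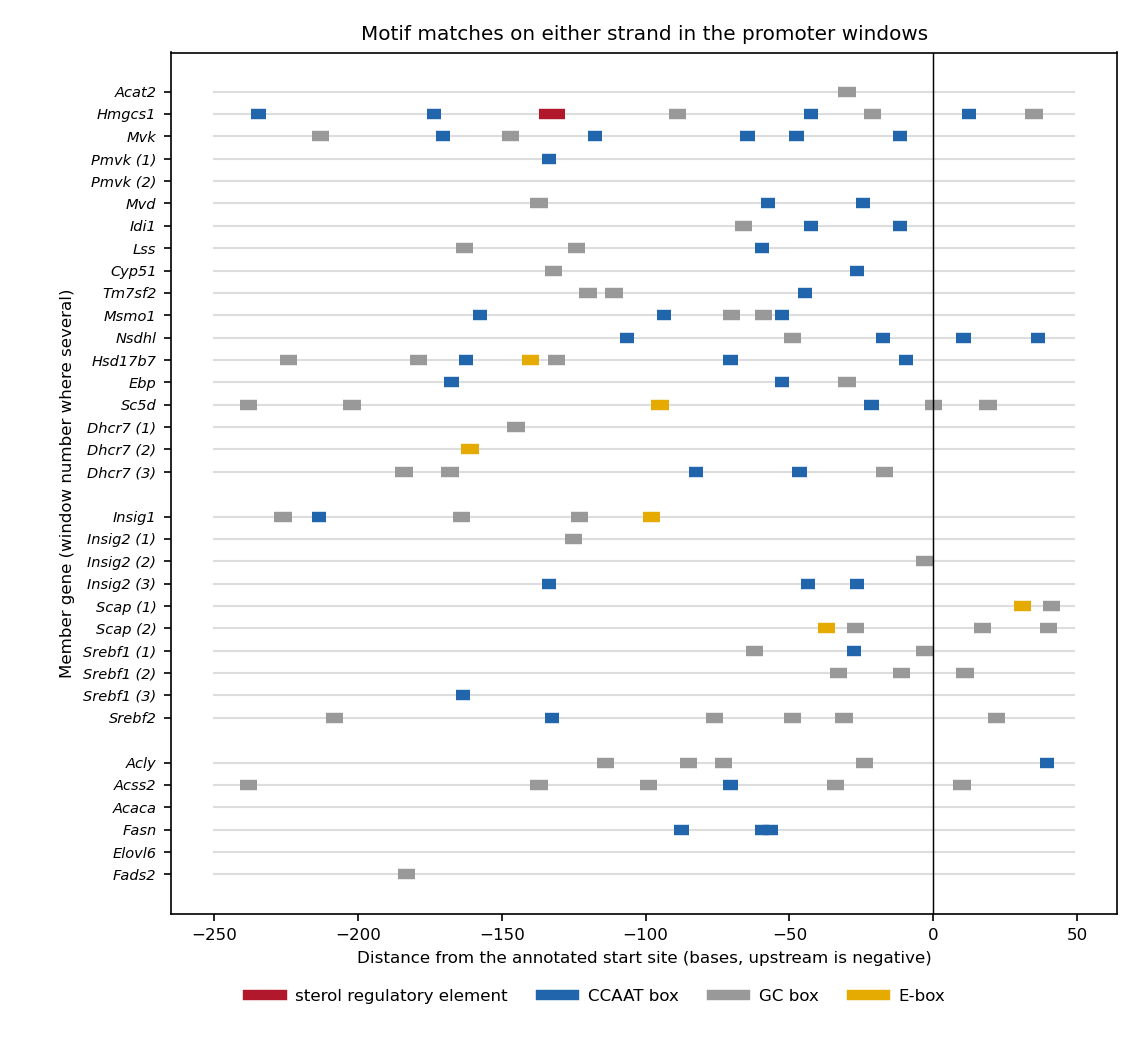
Matches to the 4 strings in the 34 promoter windows of 26 members, by distance from the annotated start site (bases, upstream negative). CCAAT is in 14 of 15 sterol enzymes, and TCACNCCAC, the string searched as sterol regulatory element, in Hmgcs1 alone. Variants of that string were not searched.

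Among the genes that sense and carry sterols, the INSIG pair differed. Insig1, itself a well-known SREBP target that retains SCAP, stood at 33.8 CPM in control medium, 23.0 under Wnt2, 34.2 under CAF.CM and 52.2 with the antibody. It was lowest with Wnt2, highest with the antibody, and alike in control medium and CAF.CM. Insig2, its paralog with the same role, had 16, 16.8, 16.1 and 16.1 CPM, a spread of 1.05-fold and the smallest of the 31 members. Srebf2, the sterol-branch factor, had 17.8, 19.2, 18.2 and 29.7 CPM, so the antibody library alone stood apart. Srebf1, the fatty-acid-branch factor, had 39.5, 45.5, 42.1 and 36.0 CPM and was lowest with the antibody. The tables do not separate the isoforms of Srebf1. Stard4, a cytosolic cholesterol carrier and a known SREBP target, had 4.64, 7.43, 7.03 and 11 CPM, lowest in control medium. Scap, the sterol sensor that escorts SREBP, went the opposite way with 23.9, 18.9, 12.9 and 8.79 CPM. Scap overlaps 5830462I19Rik on the other strand, and 15.3% of its words lie on the opposite strand of other genes.

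The fatty acid branch held the member with the widest range of all. Fads1, the delta-5 desaturase of polyunsaturated fatty acids (GRCm38 chr19:10182888-10196877, plus strand), stood at 45.8 CPM in control medium, 33.8 under Wnt2, 15.9 under CAF.CM and 12.6 with the antibody, a range of 3.62-fold. Both CAF.CM libraries were below the other two. Its neighbour Fads2, the delta-6 desaturase (chr19:10062765-10101746, minus strand), was near the listing limit at 0.897, 1.11 and 0.388 CPM in control medium, CAF.CM and the antibody library. Acly, which makes acetyl-CoA from citrate, had 248, 258, 182 and 144 CPM, and it made up most of the branch's sum in each of the 4 libraries. Acss2, which makes acetyl-CoA from acetate, had 60.1, 47.8, 35.0 and 36.1 CPM. Both were lower in the CAF.CM libraries than in the others. The enzymes that commit and build the chain moved little. Acaca, acetyl-CoA carboxylase, had 60.1, 56.0, 65.4 and 61.2 CPM, and Fasn, fatty acid synthase, 27.3, 28.8, 25.6 and 25.8 CPM. Elovl6, an elongase, had 2.73, 2.89, 3.15 and 1.94 CPM. Acaca shared 56.8% of its words with other genes, mainly Gm5182, so its value is uncertain.

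**Figure D4:**
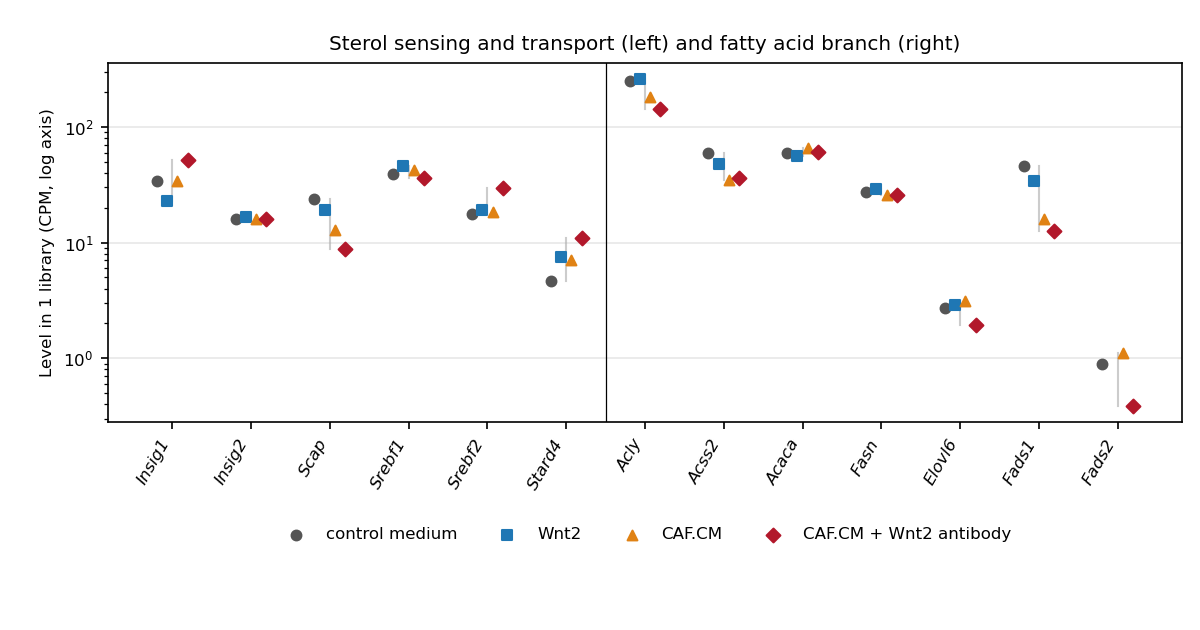
Level (CPM, log axis) of the sensing and transport genes (left) and the fatty acid genes (right), with 1 point per library. Insig1, Srebf2 and Stard4 are highest and Scap, Acly and Fads1 lowest in the antibody library (diamonds), while Insig2 and Fasn hardly differ between libraries.

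Wnt2 was then compared with control medium, the question being which genes Wnt2 targets. Called means a difference of 2-fold or more. Of the 30 listed members 0 were called in either direction, against 2.87% of all 13120 listed genes called higher and 2.93% called lower. At 1.5-fold 1 member was higher, Stard4, against 7.38% of genes, and 0 lower, against 8.0%. Stard4 and Insig1 had the largest differences, Stard4 at a log2 ratio of 0.68 (interval 0.54 to 0.82) and Insig1 at -0.56 (-0.62 to -0.49). Scap stood at -0.33 (-0.41 to -0.26) and Fads1 at -0.44 (-0.49 to -0.38). The sterol enzymes were spread on both sides of 0, from Cyp51 at -0.28 to Sc5d at 0.34. Their median was -0.02, as was that of all genes and that of the fatty acid branch, and both branch medians were above 0 with DESeq2 size factors. The counting interval lay wholly above 0 for 6 of 18 sterol enzymes and wholly below for 7, against 34.8% and 40.9% of all listed. In the authors' deposited table, Stard4 (adjusted p = 0.0147) and Insig1 (adjusted p = 0.0478) were the 2 members below 0.05, 1 higher and 1 lower, where 7.36% of listed genes were higher and 8.0% lower. No source used here says how p-values came from single libraries.

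CAF.CM was next set against control medium. Of 31 members 2 were called higher, against 6.68% of all 13329 genes, and 1 lower, against 8.69%. The higher ones were Pmvk at 2.12-fold (log2 ratio 1.08, interval 0.94 to 1.24) and Hsd17b7 at 2.01-fold (1.00, 0.74 to 1.27), both sterol enzymes, and with a prior count of 5 Pmvk alone was called. The lower one was Fads1 at 2.87-fold (-1.52, -1.67 to -1.38). At 1.5-fold 3 members were higher, against 13.8% of genes, and 4 lower, against 17.9%. Other sterol enzymes were higher by less than 2-fold, among them Mvd (0.53), Idi1 (0.50), Mvk (0.48), Sqle (0.46) and Lss (0.37), and others lower, with Dhcr7 at -0.63, Sc5d at -0.58 and Hmgcs1 at -0.43. The median was 0.19 over sterol enzymes, -0.09 over fatty acid genes and -0.04 over all genes, and that of the fatty acid genes was between -0.03 and -0.05 with the other scalings. Of the enzymes up to squalene the median was 0.41, and of those after it 0.09. Intervals lay wholly above 0 for 8 of 18 sterol enzymes and wholly below for 5, against 32.5% and 40.3% of all genes. Scap stood at -0.89, Acss2 at -0.78 and Acly at -0.45. The summed fatty acid level was 0.738 times that of control medium (0.722 to 0.755) and the summed sterol level 0.965 times (0.941 to 0.990). The authors' deposited table gives an adjusted p below 0.05 to 4 members that were higher (Pmvk, Hsd17b7, Stard4 and Mvd) and 5 lower (Fads1, Scap, Acss2, Dhcr7 and Sc5d), against 13.9% and 18.8% of genes.

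The antibody library was compared with CAF.CM alone, the question being what differs once Wnt2 is bound. No group had CAF.CM with a control antibody. Binding of Wnt2 thus cannot be told apart from the addition of antibody as such. Of 31 members 0 were called higher, against 1.02% of all 13072 genes, and 1 lower, against 3.65%. That one was Fads2, with 29 and 9 reads in CAF.CM and the antibody library, which was listed only through its CAF.CM value and had to lie near or below it. At 1.5-fold 5 members were higher, against 4.4% of all genes. All 5 belong to the sterol branch or its control, groups that hold 18 and 6 of the 31 members. They were Sqle at 1.86-fold (log2 ratio 0.89, interval 0.71 to 1.09), Srebf2 at 1.62-fold (0.70, 0.53 to 0.87), Idi1 at 1.59-fold (0.67, 0.43 to 0.92), Stard4 at 1.56-fold (0.64, 0.37 to 0.93) and Insig1 at 1.53-fold (0.61, 0.49 to 0.74). Msmo1 (0.56), Hmgcs1 (0.43), Cyp51 (0.40), Fdft1 (0.36) and Fdps (0.31) followed, each with an interval above 0. Members lower by 1.5-fold numbered 2, Fads2 and Elovl6, against 10.7% of all genes. Intervals lay wholly above 0 for 7 of 18 sterol enzymes and wholly below for 1, Mvk (-0.48), against 21.5% and 29.2% of all genes. For the other 10 they held 0, so no difference was detectable at this depth for those, Sc5d, Dhcr7, Ebp and Hsd17b7 among them.

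The median antibody ratio was 0.12 over the sterol enzymes, 0.30 over sensing and transport genes, -0.33 over fatty acid genes and -0.04 for the whole table. Without Fads2, which had under 100 reads over both libraries, the fatty acid median was -0.21. The summed sterol level was 1.17 times that in CAF.CM (1.13 to 1.21) and the summed fatty acid level 0.860 times (0.833 to 0.888). On the fatty acid side Elovl6 stood at -0.68 (-1.26 to -0.16), Acly at -0.34 (-0.40 to -0.27) and Fads1 at -0.33 (-0.55 to -0.11). The intervals of Fasn (0.01), Acaca (-0.10) and Acss2 (0.04) held 0, and Fasn turned sign with total reads. Srebf1 stood at -0.23 (-0.36 to -0.09) and Scap at -0.55 (-0.81 to -0.30). In the authors' deposited table Sqle (adjusted p = 0.00254) and Srebf2 (adjusted p = 0.0281) were the 2 members below 0.05, both higher, where 1.42% of all genes were higher and 5.55% lower.

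**Figure D5:**
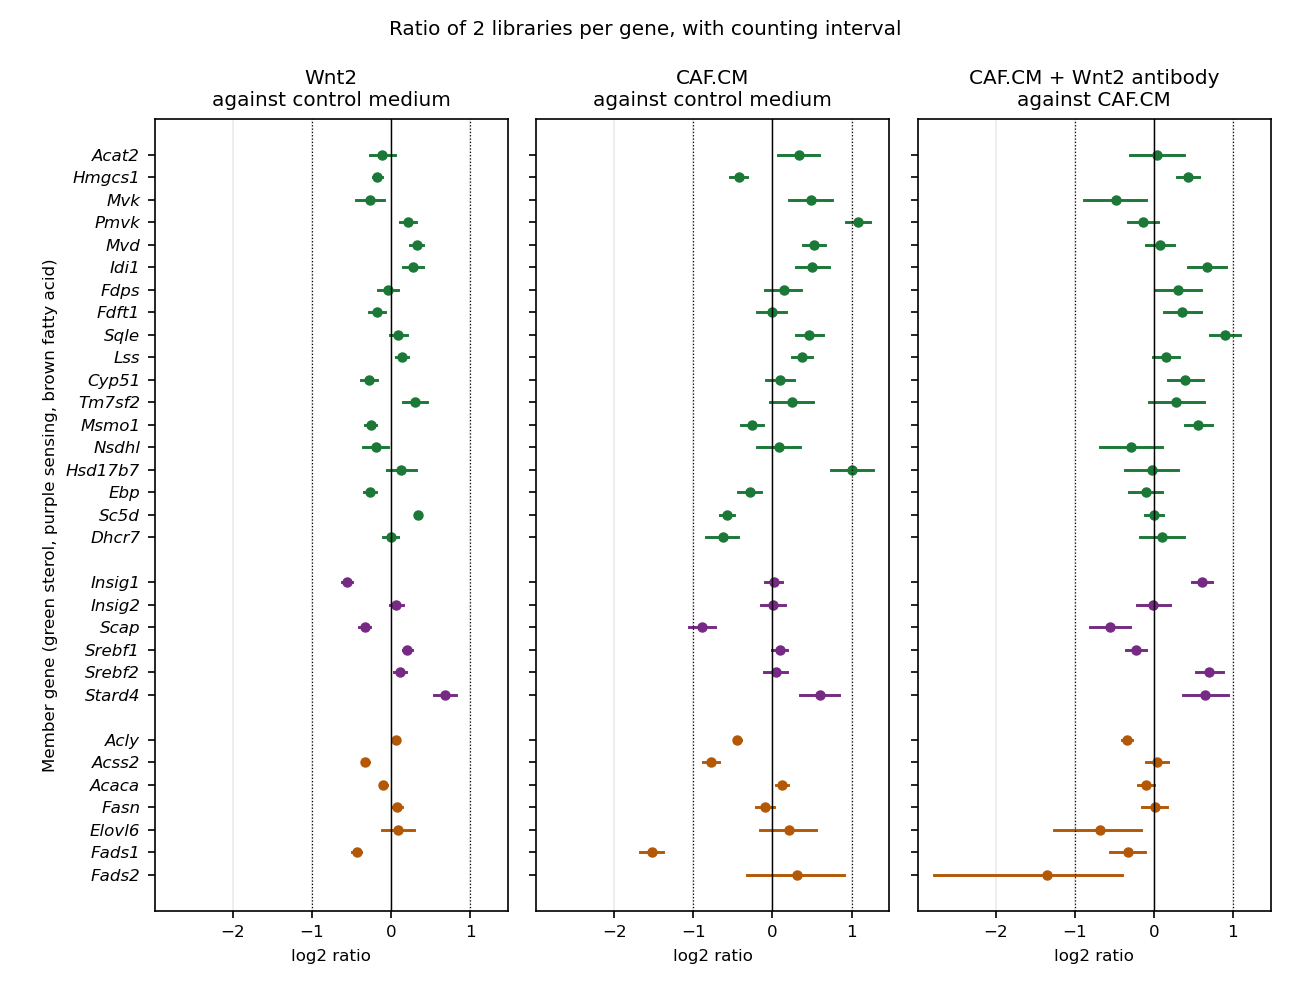
Log2 ratio (x axis) of each member, with 95% counting intervals as bars, for the 3 deposited comparisons. Dotted lines mark 2-fold. With Wnt2 all points lie inside the 2-fold lines, from Insig1 (-0.56) to Stard4 (0.68), and in the antibody comparison Sqle (0.89) and Srebf2 (0.70) have the highest ratios and Fads2 (-1.35) the lowest.

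The antibody library was also set against control medium, a pair that no deposited table holds. The values of CAF.CM, the library shared by both tables, were identical in them for 12848 of 12848 genes. Of 31 members 3 were called higher, against 8.06% of all 12848 genes, and 3 lower, against 12.6%. The higher ones were Sqle at 2.57-fold (1.36, 1.22 to 1.5), Stard4 at 2.37-fold (1.24, 1.03 to 1.46) and Idi1 at 2.26-fold (1.17, 0.99 to 1.36). Hsd17b7 (0.98) and Pmvk (0.94) fell just short, and with DESeq2 size factors both passed. The lower ones were Fads1 at 3.62-fold (-1.86, -2.03 to -1.69), Scap at 2.71-fold (-1.44, -1.65 to -1.24) and Fads2 at 2.24-fold (-1.16, -2.37 to -0.24). Fads2 lay below the listing limit of about 1 CPM in both of these libraries. It had 0.897 CPM in control medium and 0.388 CPM (9 reads) with the antibody, and entered this pair only through its CAF.CM value. At 1.5-fold 8 were higher, against 17.3%, and 5 lower, against 24.0%. Intervals lay wholly above 0 for 12 of 18 sterol enzymes and wholly below for 3, against 35.5% and 42.8% of all genes. Hmgcs1 stood at 0.01 (-0.09 to 0.11). The median was 0.41 over sterol enzymes and -0.73 over fatty acid genes, where the median over all genes was -0.06. This comparison shares a library with each of the others that involve CAF.CM or control medium, so they are not independent of one another.

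Other genes of these pathways were counted from fixed lists. Of 22 further sterol and SREBP genes 19 were listed. With the antibody against CAF.CM 0 were called, against 1.02% of all genes higher and 3.65% lower, with a median of 0.02. Mylip, a ubiquitin ligase gene and LXR target, had 61.1 CPM in control medium, 60.6 under Wnt2, 34.7 under CAF.CM and 24.0 with the antibody, where its log2 ratio to CAF.CM was -0.53 (interval -0.69 to -0.38). Of the 19 genes, 0 were called with Wnt2, against 2.87% of all genes higher and 2.93% lower, and the median was -0.06. With CAF.CM 1 was called higher, Npc2 (1.71), against 6.68% of all genes, and 0 lower, against 8.69%, with a median of -0.16.

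Of 28 further fatty acid genes 24 were listed with Wnt2 and with CAF.CM, and 23 in the antibody table. The stearoyl-CoA desaturases differed from the members of the branch. Scd2 had 130, 249, 432 and 588 CPM in the order used above, and Scd1 10.5, 6.96, 37.3 and 57.1 CPM, both highest with the antibody. With CAF.CM 3 of the 24 were called higher, Acsl1 (2.28), Scd1 (1.82) and Scd2 (1.73), and 2 lower, Fads3 (-1.87) and Hacd4 (-1.36), with a median of -0.07. With the antibody 0 of 23 were called higher and 1 lower, Nr1h3, the LXR-alpha gene (-1.12, from 2.15 to 0.948 CPM, named after its value was seen), with a median of -0.08. Nr1h3 with the antibody and Fads3 with CAF.CM (0.73 CPM) lay below the listing limit of about 1 CPM. Each was listed only through the other library of its comparison. With Wnt2 1 was called lower, also Nr1h3 (-1.38), and 0 higher, with Scd2 at 0.93. Of 9 LXR target genes, which share Scd1, Scd2, Srebf1, Mylip and Nr1h3 with the lists above, 1 was lower and 0 higher with the antibody, and 1 lower (Apoe, -3.30) and 2 higher with CAF.CM. With Wnt2 2 of the 9 were lower, Nr1h3 and Abcg1 (-1.19), and 0 higher. Of all listed genes, 2.87% were called higher and 2.93% lower with Wnt2. The shares were 6.68% and 8.69% with CAF.CM, and 1.02% and 3.65% with the antibody against CAF.CM.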

How the data were processed

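Per the labels' protocols, total RNA without ribosomal RNA went into a stranded kit. The submitters' processing notes name GRCm38.p5 and mm10 as builds and STAR 2.4.2a, RSEM 1.2.29 and edgeR as tools, without settings. The deposited library values are CPM on effective library sizes. Per the file headers, p-values, adjusted p-values, log2 fold changes and a log2 mean level were deposited too. Listed genes have about 1 CPM or more in 1 or both libraries of a table.

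CPM values were whole multiples of 1 step per library (0.00706, 0.00651, 0.0384 and 0.0431 CPM for control medium, Wnt2, CAF.CM and antibody). Within a tolerance of 0.1 step 100% were whole, and reads were recovered from the steps. No count test was run for want of replicates. Log2 ratios used these reads with a prior count of 2, scaled to the deposited effective library sizes, and were tested on simulated data. The simulated data were Poisson draws with planted changes. They check the calculation and hold no variation between replicates. Tools were Python 3.11.15, scipy 1.17.1, numpy 2.4.6, pandas 2.3.3 and matplotlib 3.10.9. Alternatives used edgeR 4.0.16 and DESeq2 1.42.0 in R 4.3.3 for scaling factors. They were DESeq2 size factors, total reads, own TMM factors, prior counts of 0.5 and 5, at least 100 reads, the deposited log2 fold changes and a 1.5-fold threshold. Exon lengths, positions and words of 31 bases came from GENCODE M21, which matched 99.82% of genes. The members and lists were chosen with earlier results of these data known. All members are named, and from other pathway lists up to 6 genes per comparison with the largest ratio and at least 100 reads. The levels of Scd1, Scd2 and Mylip in all libraries follow from that choice in another comparison. Some genes of these lists are not reported here. A planned comparison of protein sequences was not run.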

Additional observations from a re-analysis of the deposited data

How the results depend on the processing

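A recomputed count was taken as moved when it differed by over 1.5 times, and a median when it left the counting interval of its middle gene. By that measure 10 values moved, 3 turned sign and 103 stayed within it, though not all of those were equal. Among them, members higher with the antibody against control medium numbered 4 with total reads, and those higher with CAF.CM 3 at 1.5-fold. The fatty acid median with the antibody against CAF.CM was -0.21 with at least 100 reads, in place of -0.33, and with CAF.CM it ran from -0.05 to -0.03 over the other scalings, in place of -0.09. No shift's cause was tested beyond those stated. With Wnt2 the fatty acid median turned from -0.02 to 0.0023 with DESeq2 size factors and 0.0004 with own TMM factors, and the sterol median to 0.0014 with DESeq2 size factors. At 1.5-fold, members counted as higher numbered 1 with Wnt2, 5 with the antibody against CAF.CM and 8 with the antibody against control medium, and those lower 4 with CAF.CM, 2 with the antibody against CAF.CM and 5 with the antibody against control medium. With DESeq2 size factors and with own TMM factors 5 members were higher with the antibody against control medium, in place of 3, and with a prior count of 5 1 member was higher with CAF.CM, in place of 2. With at least 100 reads 0 members were lower with the antibody against CAF.CM, since Fads2 was then not tested. Another scaling moved the median of all genes by at most 0.06. Depth limits Fads2 and Elovl6 most in the 2 CAF.CM libraries. No paired analysis was possible because each group has 1 library.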
